A study of Mus musculus with 24 samples.

Results

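The combination of vorinostat and tadalafil was compared with tadalafil alone in the hippocampus of aged Tg2576 mice, a comparison that asks what vorinostat adds to a PDE5 inhibitor. It used 6 of the 24 arrays of the series, combination 1 to 3 and tadalafil 1 to 3, each from 1 hippocampus of 1 mouse and hybridized to an Affymetrix Mouse Gene 2.0 ST array. All mice were female and carried human amyloid precursor protein with the Swedish mutation under the prion promoter, B6.Cg-Tg(APPswe)E1-2Dbo/J by the labels. The labels give an age of 16 to 18 months, older than the age at the start of treatment in the study's methods, which also name another background. Tadalafil (1 mg/kg by mouth) was given once daily for 4 weeks, alone or with vorinostat, which the labels call SAHA (12.5 mg/kg into the peritoneum). A washout of 4 weeks followed, with a last water maze phase, and the tissue was taken the day after the last probe, so that the values describe RNA well after the last dose in mice that had just been trained. Vehicle 1 to 3 and vorinostat 1 to 3 were fitted beside the 6 arrays and are given as reference values.

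Vorinostat blocks zinc-dependent histone deacetylases (HDACs), the enzymes that take acetyl groups off histones. Tadalafil blocks phosphodiesterase 5 (PDE5), which degrades cGMP, so that cGMP and its kinase can act for longer, among other targets on the transcription factor CREB. Both routes are known to favour transcription of memory-related genes, CREB by binding their promoters and histone acetylation by opening the chromatin there.

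The arrays were taken from 1 of 2 sets told apart by Snord13, a small nucleolar RNA. Its log2 value was between 7.27 and 8.46 in the first set of 12 arrays and between 10.35 and 11.46 in the second set of 12. The 6 arrays compared lay between 7.63 and 8.45. The sets come from the values, since the labels name none. The medians of the 6 arrays were between 5.91 and 5.97, and over the genes tested the correlation was 0.988 to 0.991 within a group and 0.989 to 0.992 between the groups. Pyramidal neuron markers were expressed in all 6 arrays, with means of 8.53 to 8.81 over 7 CA1 genes. The mean of 13 thalamus markers was 6.94 to 7.16 in the 6 arrays and 8.68 in vehicle 3, whose CA1 mean was 7.16. Choroid plexus markers stood out in tadalafil 3, and myelin markers in combination 2 and tadalafil 3, as described with those lists. In whole tissue, fewer cells of a type and less RNA per cell cannot be told apart.

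After the filter on low values, 19795 genes were compared. None differed between the combination and tadalafil at an adjusted p of 0.05 (0% of the genes tested; limma, Benjamini-Hochberg), the smallest being 0.805. At an unadjusted p under 0.05, 248 genes were higher in the combination (1.25% of the genes tested) and 244 were lower (1.23%), 492 in all (2.49%). In 867 genes all 3 combination arrays lay above all 3 tadalafil arrays (4.38%), and in 885 all lay below (4.47%), 1752 in all (8.85%). With arrays centred on their median, the genes at an unadjusted p under 0.05 were divided into 310 higher and 188 lower, and those without overlap into 984 higher and 597 lower. The differences were small. Their absolute value had a median of 0.07 and a 95th percentile of 0.27 on the log2 scale, 67 genes exceeded 0.5, and 1 exceeded 1, the zinc finger gene Zfp457 at -1.23, with overlapping arrays. The median standard error was 0.13, so that the 95% interval of a typical gene reached 0.28 to each side. An exact permutation test of 3 arrays against 3 cannot give a two-sided p below 0.1. If no gene differed, a share of 0.1 of the genes would be expected without overlap. A share of 0.05 would be expected at an unadjusted p under 0.05. The 8.85% and 2.49% above lie below these shares.

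**Figure D1:**
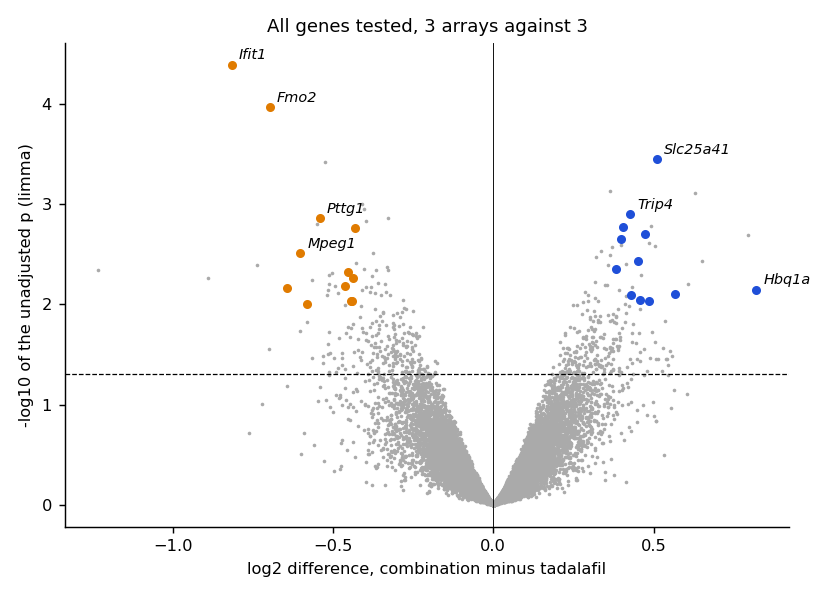
Each grey point is 1 of the 19795 genes, with the log2 difference between combination 1 to 3 and tadalafil 1 to 3 on the x axis and -log10 of the unadjusted limma p on the y axis. Orange and blue points are the 12 named genes lower and higher in the combination, and the dashed line marks an unadjusted p of 0.05. Ifit1 (-0.82) and Fmo2 (-0.70) have the smallest p, and the cloud is about as wide to the left as to the right.

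The 12 genes named in each direction had the largest differences among annotated protein-coding genes with an unadjusted p under 0.01 and arrays that did not overlap, for which 27 lower and 23 higher genes qualified. They were picked by these differences and are given as a description. None of the 24 passed the adjusted threshold, and their adjusted p was 0.805 for Ifit1 and 1.0 for the others (limma).

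Ifit1 (probe set 17358832), an interferon-induced protein that binds viral RNA lacking the host cap methylation, had the smallest p. It was at 5.44, 5.68 and 5.73 in combination 1 to 3 and at 6.22, 6.41 and 6.67 in tadalafil 1 to 3, with a difference of -0.82 (SE 0.13, 95% interval -1.10 to -0.53, n = 3 in each group), or 1.76-fold lower in the combination. Vehicle 1 to 3 lay between the groups at 5.94, 5.78 and 6.07. All tadalafil arrays were thus above these 3 vehicle arrays and all combination arrays below them. With all 24 arrays in the fit and 1 mean for each group in each array set, the same difference passed the threshold (limma, adjusted p = 0.0103), against an adjusted p of 0.0846 to 1.0 under the other alternatives. In the second array set, which holds no tadalafil array, combination 4 to 7 were at 6.06, 5.86, 6.14 and 6.00 and vehicle 4 to 7 at 6.06, 5.85, 5.88 and 5.82. There the combination was not below vehicle.

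Fmo2 (probe set 17229036), a flavin monooxygenase whose RNA is induced by glucocorticoids, was at 5.83, 6.16 and 6.06 in the combination and at 6.79, 6.68 and 6.67 with tadalafil. The difference was -0.70 (SE 0.12, 95% interval -0.97 to -0.43), or 1.62-fold lower in the combination. The combination was near vehicle 1 to 3, at 5.96, 5.92 and 5.89, while vorinostat 1 to 3 were at 6.78, 6.29 and 6.57, as high as tadalafil in 1 array. Both single drugs thus lay above vehicle in every array of the first set, and the combination overlapped with vehicle. Combination 4 to 7 were also low, at 5.82, 5.61, 5.52 and 5.52.

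Mpeg1, the pore-forming perforin-2 of macrophages and microglia, was at 6.88, 7.25 and 7.26 in the combination and at 7.63, 7.81 and 7.75 with tadalafil, a difference of -0.60 (SE 0.16). Vehicle 1 to 3 were at 6.59, 6.73 and 7.18, below every tadalafil array. Ccl6, a chemokine of myeloid cells, was at 5.36, 5.09 and 5.19 against 5.85, 5.60 and 5.58, with a difference of -0.46 (SE 0.14). Its vehicle arrays, at 4.96, 5.16 and 5.48, were again below tadalafil and spread over the combination values.

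Pttg1, the securin that restrains separase until sister chromatids part, was at 6.66, 6.83 and 6.80 in the combination and at 7.44, 7.15 and 7.32 with tadalafil (difference -0.54, SE 0.13), and vehicle 1 to 3 at 7.08, 7.08 and 7.21 were above every combination array. Rpl3, a protein of the large ribosomal subunit whose introns hold small nucleolar RNA genes, was at 9.29, 8.80 and 9.70 in the combination against 9.94, 9.88 and 9.72. Its difference of -0.58 (SE 0.19) came with a wide spread among the combination arrays and a gap of only 0.02 between the closest arrays of the groups, and it was -0.17 with all 7 combination arrays and the array set as a block. Ap3s1, a subunit of the AP-3 adaptor that sorts cargo to lysosomes, was at 5.83, 5.67 and 5.81 against 6.38, 6.07 and 6.15 (difference -0.43, SE 0.11). The other 5 lower genes had differences of -0.64 to -0.44 and were the sialyltransferase St6galnac1, the acyltransferase Acnat2, the cytochrome P450 Cyp2j12, the adhesion molecule Ceacam3 and Spata45. Of the 12 lower genes, tadalafil lay wholly above vehicle 1 to 3 in 5 and the combination wholly below it in 6.

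Among the higher genes, Trip4, an activating signal cointegrator of nuclear receptors, was the one of highest level. It was at 7.70, 7.50 and 7.49 in the combination and at 7.19, 7.16 and 7.06 with tadalafil, a difference of 0.43 (SE 0.10, 95% interval 0.20 to 0.65). Vehicle 1 to 3, at 7.78, 7.50 and 7.51, and vorinostat 1 to 3, at 7.58, 7.54 and 7.68, lay with the combination, so that tadalafil was the group apart. Slc25a41, a mitochondrial carrier of the ATP-magnesium and phosphate type, was at 5.26, 5.37 and 5.50 against 4.83, 4.72 and 5.04 (difference 0.51, SE 0.10), with vehicle 1 to 3 at 5.18, 5.33 and 5.38. Hbq1a, a theta globin, had the largest difference of the named higher genes at 0.82 (SE 0.26), with 6.89, 6.76 and 6.75 against 6.20, 5.96 and 5.79. Of the vorinostat arrays, 1 was lower still at 5.39. In the second array set, Hbq1a was at 5.65, 6.55, 6.805 and 6.75 in combination 4 to 7. Combination 4 thus lay below every tadalafil array. Vehicle 4 to 7 were at 5.97, 6.915, 6.48 and 6.61. Mrgpra1, a sensory neuron receptor, was at 7.11, 6.66 and 6.75 against 6.18, 6.49 and 6.47, with a difference of 0.46 (SE 0.15).

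The other 8 higher genes, the NKG2D ligand Ulbp1, the histone variant H2al3, the oocyte protease Astl, the testis protease Adam24, Speer4f2, the chemokine receptor Ccr8, the bone sialoprotein Ibsp and the chaperonin relative Cct8l1, had differences of 0.38 to 0.57. A mean under 5, near the floor of 4, was found in 7 of the 12 higher genes and in 1 of the 12 lower genes, St6galnac1. Tadalafil lay wholly below vehicle 1 to 3 in 5 of the 12 higher genes and the combination wholly above it in 4. These positions rest in part on the arrays by which the genes were picked.

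**Figure D2:**
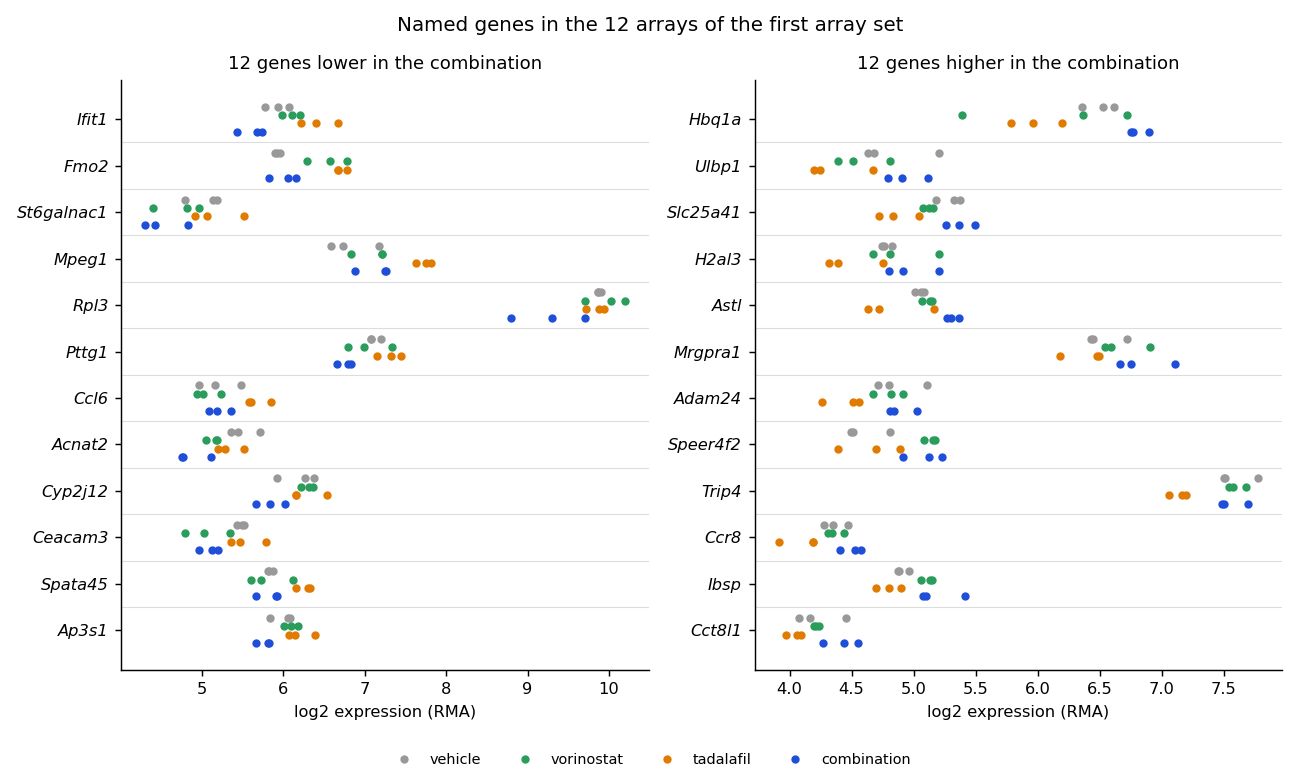
Log2 expression (RMA) of the 24 named genes on the x axis, 1 point per array, for vehicle, vorinostat, tadalafil and combination 1 to 3. Blue combination and orange tadalafil points do not overlap in any gene, as the choice required, and grey vehicle points lie on the side of tadalafil in some genes (Rpl3, Pttg1) and of the combination in others (Fmo2, Trip4).

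The genes of the drug targets were at like levels in both groups. Pde5a, the target of tadalafil, was at 7.00, 6.97 and 6.87 in the combination and at 6.81, 7.00 and 6.94 with tadalafil, a difference of 0.03 with a 95% interval of -0.30 to 0.35. Of 18 genes of cGMP signalling, 14 were higher and 4 lower, with a median of 0.05, against 50.8% higher and 49.1% lower among all genes. Without combination 3 or without tadalafil 3 they were divided evenly, with 9 of 18 higher and medians of -0.00 and -0.01. The endothelial nitric oxide synthase Nos3 was the only one at an unadjusted p under 0.05, at 7.02, 7.17 and 6.96 against 6.96, 6.83 and 6.64 (difference 0.24, SE 0.10), and its lowest combination array was level with the highest tadalafil array. The cGMP-dependent kinase Prkg1 was at 0.20 (SE 0.12) without overlap, the natriuretic peptide receptor Npr1 at -0.14 (SE 0.12) and the calmodulin-dependent phosphodiesterase Pde1c at -0.16 (SE 0.16). Beside Prkg1, only the phosphodiesterase Pde2a did not overlap, at 0.11. Thus 2 of 18 were higher without overlap, against 4.38% among all genes. The SE of Pde2a was 0.35, since the fit shares its spread with vehicle 3. There Pde2a was at 9.62, against 11.42 and 11.4 in vehicle 1 and 2.

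None of the 11 histone deacetylase genes had an unadjusted p under 0.05, with 6 higher, 5 lower and a median of 0.03. Without tadalafil 1 all 11 were higher with a median of 0.05. Without tadalafil 3, 5 were higher and 6 lower with a median of -0.001. Hdac2, a class I deacetylase of neurons, was at 8.68, 8.70 and 8.77 in the combination and at 8.66, 8.65 and 8.50 with tadalafil, apart by 0.03 between the closest arrays (difference 0.12, SE 0.08, 95% interval -0.07 to 0.30). Hdac7, Hdac11 and Hdac10 were at 0.14, 0.10 and -0.11. The 95% intervals of the 11 genes together spanned -0.38 to 0.42. Histone acetyltransferases and readers were divided evenly, with 7 of 14 higher and a median of 0.01. Of 12 genes known to be raised by HDAC inhibitors in cultured cells 5 were higher and 7 lower. Their median was -0.04, with none at an unadjusted p under 0.05. The direction of these 12 changed with the array left out. Without tadalafil 3 the median was 0.04 with 8 higher, and without combination 2 it was -0.12 with 8 lower.

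Genes that neurons induce on activity, many of them CREB targets, were more often higher in the combination. Of 38, 28 were higher, with a median of 0.09 against 0.00 over all genes, but only Klf4, an immediate early transcription factor, had an unadjusted p under 0.05. It was at 6.73, 6.58 and 6.58 against 6.42, 6.21 and 6.35 (difference 0.30, SE 0.11). The fit shares its spread with vehicle 3, where some members of the list were far lower, which widened their standard errors. Egr3 was at 6.52 in vehicle 3 and at 8.53 in vehicle 1 and 2. Its SE was 0.39, with an SD of 0.04 in the combination and 0.11 with tadalafil. Arrays did not overlap in 4 members, against 4.38% higher without overlap among all genes. They were Klf4, the granin relative Vgf (0.18), the early response gene Ier2 (0.28) and the phosphatase Dusp5 (0.29), and the stress factor Atf3 was at 0.21 with overlap. The mean of the list was 8.04, 7.98 and 8.03 in combination 1 to 3 and 7.78, 7.95 and 8.05 in tadalafil 1 to 3, so that tadalafil 1 was the low array, and without it the median was 0.02 with 22 of 38 higher. With all 7 combination arrays and the array set as a block the median was -0.02.

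A cyclic AMP response element, the full palindrome TGACGTCA that CREB binds, was searched in the RefSeq promoters of the list (GRCm38.p6, 250 bases before to 50 after a start). It was in 4 of the 29 members with a promoter, Btg2, Dusp1, Pcsk1 and Scg2, against 2.86% of the genes tested that have a promoter and 2.48% of all promoter windows. Of these 4, Pcsk1 was at 0.07, and Scg2, Btg2 and Dusp1 were at -0.03, -0.14 and -0.16, all with overlapping arrays. The stretches of 60 bases around it are shown for the antiproliferative gene Btg2 (chr1:134079277-134079336, minus strand) and the MAP kinase phosphatase Dusp1 (chr17:26508571-26508630, minus strand), with the element in capitals.
Btg2: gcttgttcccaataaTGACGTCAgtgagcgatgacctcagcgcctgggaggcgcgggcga
Dusp1: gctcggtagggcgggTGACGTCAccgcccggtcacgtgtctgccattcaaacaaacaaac
The full palindrome was not in the windows of Klf4 and Dusp5. Members without a promoter window could not be searched, and nothing is stated here for Vgf and Ier2, which also did not overlap.

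Synaptic genes differed little. Of 24 postsynaptic scaffold and spine genes 19 were higher, with a median of 0.02 and none at an unadjusted p under 0.05, but 12 were higher without tadalafil 3 and 13 without combination 3. The actin-binding Cttn was at 8.76, 8.69 and 8.55 against 8.50, 8.51 and 8.51 (difference 0.16, SE 0.13), and the spine apparatus gene Synpo at 6.82 in all 3 combination arrays against 6.70, 6.59 and 6.70 (difference 0.16, SE 0.20). The standard error of Synpo is wide for such close arrays because the fit shares its spread with vehicle 3, where Synpo was at 5.87. The mean of the postsynaptic list was 8.48 in vehicle 3, against 9.25 and 9.255 in vehicle 1 and 2. The same limit holds for other members that were low in vehicle 3. The scaffold genes Dlgap3 and Homer2 were at 0.11 and 0.16 with overlap. Presynaptic genes had a median of 0.02 (13 of 20 higher), AMPA and NMDA receptor subunits of 0.04 (7 of 10) and GABA-A receptor subunits of 0.03 (8 of 14), and no member of these lists had an unadjusted p under 0.05.

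Neuropeptides and granins had the highest list median, 0.12, with 18 of 23 higher and none at an unadjusted p under 0.05. Trh, the thyrotropin-releasing hormone precursor, was at 6.00, 6.19 and 7.64 against 6.04, 6.13 and 5.85, so that its difference of 0.60 (SE 0.32) rested on combination 3. Hcrt and Crh, which encode orexin and corticotropin-releasing hormone, were at 0.22 and 0.25 with overlap. Of the 23, 3 did not overlap between the groups, against 4.38% higher without overlap among all genes. They were Vgf, Sst (somatostatin, 0.21) and Cck (cholecystokinin, 0.14). The list mean was 8.01, 8.10 and 8.23 in the combination and 8.04, 7.998 and 7.93 with tadalafil, and interneuron markers, which include neuropeptides, had a median of 0.09 with 10 of 11 higher, and of 0.03 with 8 of 11 higher without combination 3.

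Interferon-induced and MHC class I genes, which cells turn on when type I interferon is sensed, were mostly lower in the combination. Of 22 listed, 19 were measured, 17 were lower and 2 higher, with a median of -0.16, and 4 were lower at an unadjusted p under 0.05, against 1.23% among all genes. Beside Ifit1 these were Oasl2, an oligoadenylate synthetase relative, at 5.85, 6.19 and 5.73 against 6.13, 6.38 and 6.80 (difference -0.52, SE 0.16), Rtp4, a receptor chaperone induced by interferon, at 5.93, 6.20 and 6.19 against 6.32, 6.31 and 6.64 (-0.31, SE 0.11), and Xaf1, a pro-apoptotic factor, at 6.28, 6.38 and 6.37 against 6.74, 6.57 and 6.55 (-0.28, SE 0.12). Oasl2 overlapped between the groups and the other 3 did not. They were the only 3 of the 19 without overlap, against 4.47% lower without overlap among all genes. None passed the threshold after adjustment (limma, adjusted p of 0.805 and 1.0).

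The direction of the whole list depended on 1 array. Its mean was 6.47, 6.55 and 6.44 in combination 1 to 3 and 6.56, 6.55 and 6.94 in tadalafil 1 to 3, so that tadalafil 3 stood apart and the other tadalafil arrays were level with the highest combination array. Without tadalafil 3 the median was -0.00 with 10 of 19 lower, and it was -0.22 to -0.16 without any other of the 6 arrays. Ifit1 was at -0.70 without tadalafil 3. Vehicle 1 to 3 had list means of 6.57, 6.56 and 6.50, like those of tadalafil 1 and 2.

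Ifit1 and Ifit3 lie close together on chromosome 19 and both answer interferon. Ifit3 was at 6.58, 6.56 and 6.77 in the combination and at 6.58, 6.70 and 6.63 with tadalafil, a difference of -0.00 (95% interval -0.31 to 0.31). The motif GAAANNGAAA, the core of the interferon-stimulated response element, was searched on both strands in the same promoter windows. It was in 7 of the 15 members with a promoter (B2m, Bst2, Ifit1, Ifit3, Ifitm3, Isg15 and Trim30a), against 3.61% of the genes tested that have a promoter and 3.05% of all windows. Stretches are shown for Ifit1 (chr19:34640770-34640829, plus strand) and Ifit3 (chr19:34583358-34583417, plus strand), whose values are given above, and for Bst2 (chr8:71537558-71537617, minus strand), the tetherin that holds budding virus, whose arrays overlapped at a difference of -0.49. Capitals mark the motif, which reads TTTCNNTTTC where it is on the other strand, and the copies in Bst2 overlap.
Ifit1: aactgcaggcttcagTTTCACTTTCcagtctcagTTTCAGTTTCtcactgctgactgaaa
Ifit3: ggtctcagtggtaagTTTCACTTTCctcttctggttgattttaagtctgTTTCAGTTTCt
Bst2: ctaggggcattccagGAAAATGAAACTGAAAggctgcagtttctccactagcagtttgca
Both Ifit genes thus held 2 copies of the motif, with the same bases in the same order (TTTCACTTTC, then TTTCAGTTTC).

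Genes that microglia turn on around amyloid plaques were likewise mostly lower in the combination. Of 25 listed, 24 were measured, 19 were lower and 5 higher, with a median of -0.14, and 4 were lower at an unadjusted p under 0.05, against 1.23% among all genes. They were 3 chemokines and a lysosomal protease. Ccl3 was at 6.05, 5.98 and 6.05 in the combination and at 6.59, 6.80 and 6.50 with tadalafil (difference -0.60, SE 0.22), with vehicle 1 to 3 at 6.04, 6.17 and 6.00, level with the combination. Ccl4 was at 5.82, 6.21 and 5.92 against 6.06, 6.45 and 6.35 (-0.31, SE 0.12), with overlap. Ctss, cathepsin S, was at 9.29, 9.51 and 9.32 against 9.56, 9.66 and 9.96 (-0.36, SE 0.14), and Ccl6 is given above. The plaque receptor Trem2, named after its values were seen as the remaining member without overlap, was at 7.36, 7.40 and 7.10 against 7.57, 7.58 and 7.77 (-0.36, SE 0.17). In all, 4 of the 24 were lower without overlap, against 4.47% among all genes.

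The mean of the plaque list was 7.52, 7.66 and 7.50 in combination 1 to 3 and 7.64, 7.70 and 7.83 in tadalafil 1 to 3, and combination 2 lay above tadalafil 1. Vehicle 1 to 3 were at 7.54, 7.59 and 7.40, among the combination values. The median was -0.25 without tadalafil 1, -0.08 without tadalafil 3 and -0.07 without combination 1, with 17 to 22 of 24 members lower whichever of the 6 arrays was left out. Homeostatic microglia markers had no such lean. Of 13 homeostatic microglia markers 8 were higher and 5 lower, with a median of 0.06, and none had an unadjusted p under 0.05. Aif1, the actin-binding protein known as Iba1, was at 0.13 without overlap, the transcription factor Sall1 at 0.16, the fractalkine receptor Cx3cr1 at -0.10 and the purinergic receptor P2ry13 at -0.10.

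**Figure D3:**
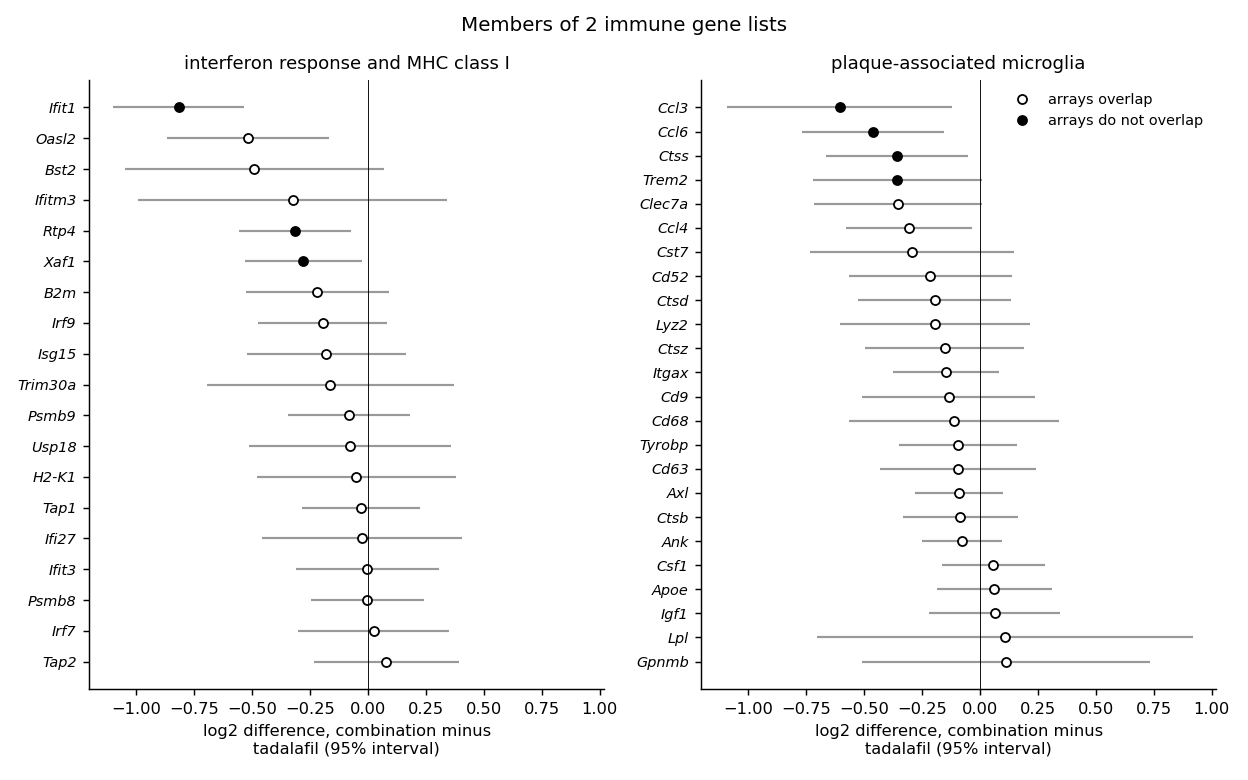
Log2 difference between combination and tadalafil on the x axis for each of the 19 interferon and 24 plaque-associated genes measured; bars are 95% intervals of the limma fit, filled points genes whose arrays do not overlap. Most points lie left of 0 in both lists, and most intervals include 0.

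Genes entered as complement were lower in 11 of 15 cases with a median of -0.07. Without tadalafil 3 they were higher in 9 of 15 with a median of 0.02. The 15 include Olfr48, an olfactory receptor matched by an alias and no complement gene, which was among the lower ones. Its difference of -0.065 is the median of the list. Cd55, which restrains complement on the cell surface, was higher at an unadjusted p under 0.05, at 6.56, 6.70 and 6.48 against 6.46, 6.28 and 6.21 (difference 0.27, SE 0.12). C1qa, a chain of C1q made by microglia, was at -0.23, the anaphylatoxin receptor C3ar1 at -0.24 without overlap and Cd59a at -0.37 with overlap. Reactive astrocyte genes were lower in 12 of 17 cases with a median of -0.11 and none at an unadjusted p under 0.05. Their median was -0.01 with 9 of 17 lower without combination 3, -0.03 without combination 1 and -0.04 without tadalafil 3. The chemokine Cxcl10, itself induced by interferon, was at 5.73, 5.90 and 5.46 against 5.94, 5.95 and 6.04 (-0.28, SE 0.13), lipocalin Lcn2 at -0.52 (SE 0.28), the hyaluronan receptor Cd44 at -0.17 and the water channel Aqp4 at -0.17.

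Among markers of neighbouring tissue, those of the choroid plexus were lower as well. The thalamus, striatum, neocortex and meningeal lists had medians of -0.01, 0.06, 0.03 and 0.065. The mean of 14 choroid plexus markers was 7.85 in tadalafil 3 and 6.13 to 6.77 in the other 5 arrays, and 13 of the 14 were lower in the combination with a median of -0.35. The bicarbonate transporter Slc4a5 was at 5.99, 6.52 and 8.28 in tadalafil 1 to 3 and at 6.45, 6.10 and 5.96 in the combination. Without tadalafil 3 the choroid median was 0.15, with 10 of 14 higher, and Kcne2 and Col8a1 changed sign, from -0.38 to 0.02 and from -0.31 to 0.08. Cldn2 was at -0.39 with all arrays. Tadalafil 3 was thus the highest of the 6 arrays both in the interferon list and in the choroid list, and the part of choroid plexus tissue in the interferon values was not tested. Among the 12 arrays, vorinostat 1 and 3 had higher choroid means still, 8.08 and 8.14, with interferon means of 6.69 and 6.57.

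Myelinating oligodendrocyte genes were lower in all 13 measured members, with a median of -0.27, but every one overlapped between the groups. Mal, a myelin membrane protein, was at 9.99, 10.73 and 10.17 in the combination and at 10.65, 10.54 and 11.01 with tadalafil (difference -0.44, SE 0.25). Cldn11, Opalin and Cnp were at -0.37, -0.37 and -0.27. The list mean was 8.48, 9.29 and 8.68 in combination 1 to 3 and 8.95, 8.88 and 9.41 in tadalafil 1 to 3, so that combination 2 and tadalafil 3 were the high arrays. Without combination 2 the median was -0.53 and 11 of the 13 did not overlap, where 1980 of all 19795 genes were then lower without overlap (885 with all 6 arrays), and without combination 1 or tadalafil 3 it was -0.11. Dentate granule markers had a median of -0.13 with 9 of 12 lower, and combination 3 was the low array with a mean of 7.43 against 7.87 to 8.04 in the other 5. Without combination 3 the median was 0.05, with 8 of 12 higher. Meningeal markers were high in combination 2 and tadalafil 3, at 8.19 each, against 7.22 to 7.44.

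**Figure D4:**
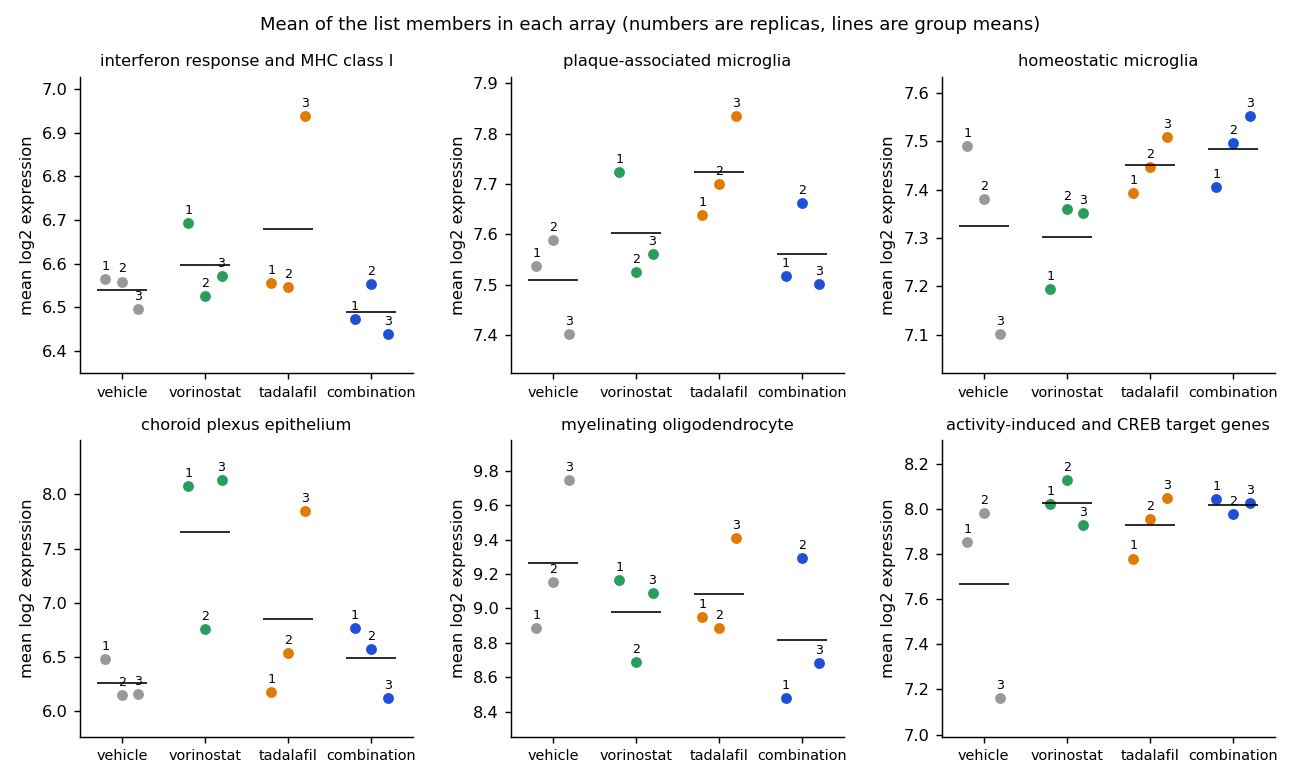
Mean log2 expression of the measured members of 6 lists in each of the 12 arrays of the first set, with points numbered by replica and lines at the group means. Tadalafil 3 is the highest of the tadalafil and combination arrays in the interferon (6.94), plaque (7.83), choroid (7.85) and myelin (9.41) panels, and vehicle 3 is the lowest of all in the activity panel (7.16).

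Glucocorticoid-induced genes were lower in 16 of 20 cases with a median of -0.06, and Fmo2 was the only one at an unadjusted p under 0.05. The metallothionein Mt2, the lipid droplet gene Plin4 and the kinase Map3k6 were at -0.20, -0.31 and -0.14 with overlap. The median ranged with the array left out, from -0.15 with 19 of 20 lower without tadalafil 2 to -0.02 with 12 of 20 lower without tadalafil 1, and 12 of 20 were also lower without tadalafil 3 or without combination 1. Clock genes were lower in 10 of 16 cases with a median of -0.05.

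Genes of the amyloid pathway lay close together in the groups. Of 14 amyloid production genes 5 were higher and 9 lower, with a median of -0.02 and 95% intervals that together spanned -0.46 to 0.30. Aph1c, a gamma-secretase subunit, was at 7.75, 7.98 and 7.82 in the combination and at 8.03, 8.16 and 8.001 with tadalafil (difference -0.22, SE 0.11). The alpha-secretase Adam17, the catalytic subunit Psen2 and Aph1a were at -0.14, -0.09 and -0.07 with overlap. App, named as the gene of the transgene's mouse counterpart, was at 0.01 (95% interval -0.16 to 0.18). Amyloid clearance genes had a median of 0.02 (7 of 11 higher) and tau, its kinases and phosphatases one of 0.01 (10 of 16 higher), with no member at an unadjusted p under 0.05 in either.

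**Figure D5:**
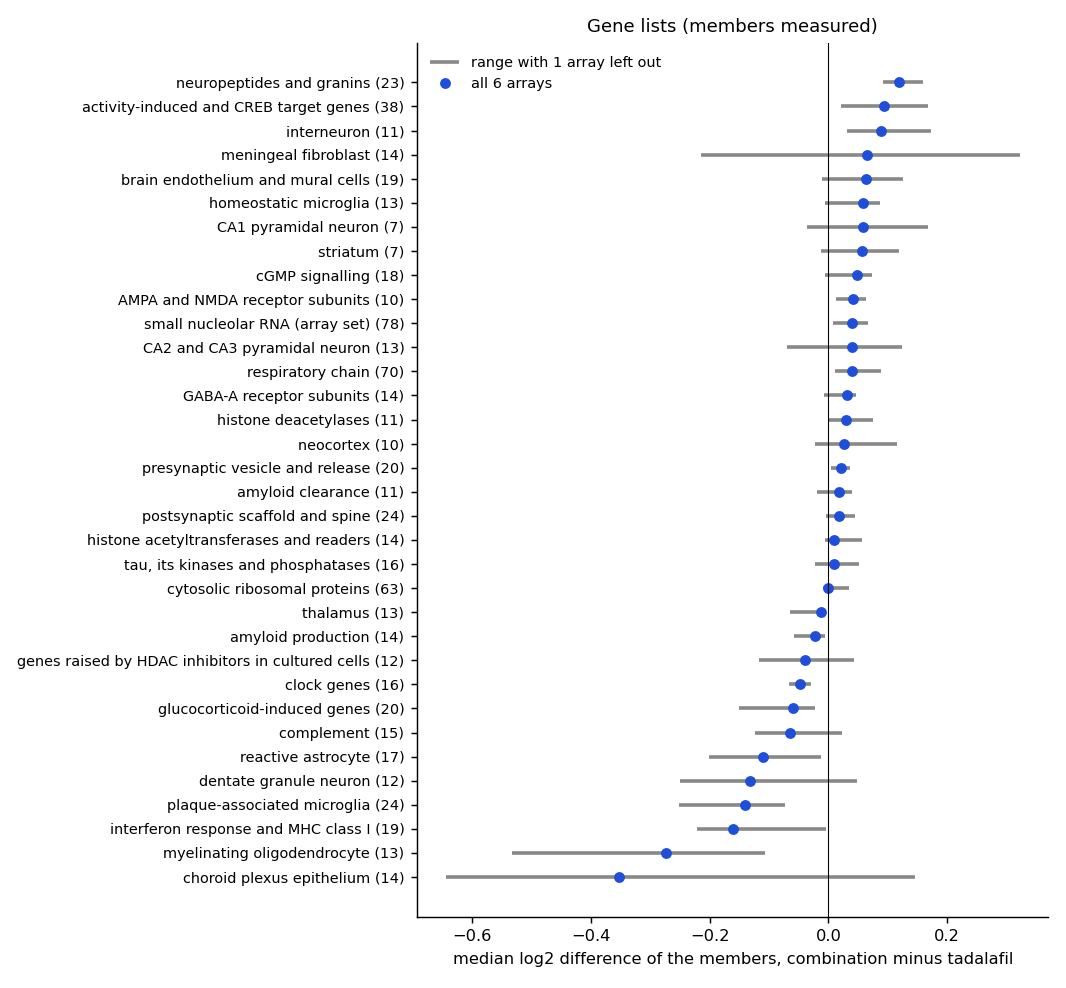
Median log2 difference of the measured members of each gene list (blue, number of members in brackets) on the x axis, with the grey bar giving the range of the median when each of the 6 arrays is left out. The median over all genes is 0.00, and the choroid list runs from -0.64 to 0.15. The bars of the neuropeptide, activity, plaque and myelin lists stay on 1 side of 0. So do those of several other lists, among them the interferon, clock, thalamus and small nucleolar RNA lists.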

How the data were processed

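TRIzol and RNeasy columns were used to isolate the hippocampal RNA. Background correction and normalization by RMA were done by the authors, who deposited log2 values of 41345 probe sets (RMA version: not given in the sources used here). For 23521 probe sets the platform annotation names 1 gene, several for 1820 and none for 16004, and 23477 of the first matched an annotation of GRCm38.p6, used for gene types and promoters.
Probe sets naming 1 gene were kept when above 4 (16 on the linear scale, the floor of the study's methods) in at least 2 arrays of each side, and the probe set of highest mean stood for a gene. This left 19795 genes. Limma 3.58.1 (R 4.3.3) was fitted to the 12 arrays of the first array set (8 residual and 4.14 prior degrees of freedom), with Benjamini-Hochberg adjustment. The study's methods compared drugs with vehicle in coding genes; non-coding genes were kept here, and coding genes alone are an alternative.
The arrays compared and the gene lists were chosen with earlier results of these data known, so lists are described by counts and medians. Named genes were the 12 of largest difference in each direction with an unadjusted p under 0.01 and no overlap, leaving out provisional names and chemosensory receptors, and the 4 members of smallest p of each list described gene by gene. Zfp457, Pde5a, Pde2a, Egr3, Dusp5, Sst, Cck, Trem2, Ifit3, Bst2, Olfr48 and App were named outside the rule, as were the members that hold a motif. Litters and cages are not given, and the number of arrays limits the precision. In simulated data with 19795 genes the fit recovered 34% of 100 genes changed by 0.5 and 88% of 100 changed by 1. It called 12 unchanged genes. Whether the simulated spread matches that of the real arrays was not tested. In the real arrays 2.49% of the genes had an unadjusted p under 0.05 (limma), below the share of 0.05 expected if no gene differed. The recovered shares thus describe the simulated data and cannot be read as the shares recovered in the real arrays.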

Additional observations from a re-analysis of the deposited data

How the results depend on the processing

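With 3 arrays in each group the precision was limited, and several list medians moved when 1 array was left out, as given with the lists. No gene passed the adjusted threshold under 19 of 20 alternatives, and Ifit1 alone (1 gene) passed with all 24 arrays and 1 mean per group and array set. The genes at an unadjusted p under 0.05 were 787 with only the 6 arrays compared, 981 with array weights, which gave vehicle 3 a weight of 0.24, 691 without vehicle 3, and 444 to 564 when each of the 6 arrays was left out. The replicate numbers did not pair the arrays, since same-numbered deviations correlated at -0.05, -0.14 and -0.15, and with the replicate number as a block 505 genes had such a p and 0 passed the adjusted threshold. Genes without overlap, recomputed under alternatives added after seeing the data, were 3376 to 4298 when 1 array was left out, as fewer arrays overlap less, and 1469 to 2031 under the others. With all 7 combination arrays and the array set as a block, list medians moved to -0.019 (activity), -0.113 (clock), -0.008 (homeostatic microglia), 0.191 (thalamus), -0.053 (CA1) and -0.018 (small nucleolar RNA); above a floor of 5 the GABA-A median was -0.03; the cause was not tested. Leaving out 1 array gave medians of -0.005 to 0.056 for acetyltransferases, -0.251 to -0.073 for plaque genes, -0.036 to 0.168 for CA1, -0.07 to 0.124 for CA2 and CA3, -0.02 to 0.04 for amyloid clearance and -0.023 to 0.051 for tau. It also turned Hdac10 (-0.192 to 0.02), Pde1c (-0.29 to 0.027), Kcne2 (-0.636 to 0.021), Col8a1 (-0.575 to 0.079) and Psen2 (-0.197 to 0.031), none of which was called.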

Other observations

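Respiratory chain genes were higher in the combination in 53 of 70 cases, with a median of 0.04 and list means of 9.05, 9.06 and 9.10 in combination 1 to 3 against 9.12, 8.93 and 9.01 in tadalafil 1 to 3. Of the 70, 1 was higher at an unadjusted p under 0.05, near the 1.25% among all genes. Without overlap 8 were higher and 2 lower, against 4.38% and 4.47% among all genes. Without tadalafil 2, 38 of 70 were higher with a median of 0.01. Cytosolic ribosomal protein genes were divided evenly, with 32 of 63 higher and a median of 0.00. Small nucleolar RNAs were higher in 49 of 78 cases with a median of 0.04. The array sets were told apart by Snord13 alone. Vessel markers had a median of 0.06 with 13 of 19 higher, striatal markers of 0.06 with 6 of 7 higher and neocortical markers of 0.03 with 6 of 10 higher, and the medians of these 3 marker lists were each below 0 without at least 1 of the 6 arrays. Of 8 red blood cell genes listed only 1 was measured.
Against vehicle 1 to 3, which both groups share as a reference, the plaque-associated list had a median of 0.15 with tadalafil (21 of 24 members above vehicle) and of 0.01 with the combination (14 of 24), and the interferon list of 0.07 (16 of 19) and -0.06 (5 of 19). Of these vehicle arrays, vehicle 3, with its high thalamus mean of 8.68, had the lowest plaque and interferon means (7.40 and 6.50). Its part in these medians was not tested. In Trip4, the second array set held combination 4 to 7 at 7.61, 7.64, 7.67 and 7.56 and vehicle 4 to 7 at 7.42, 7.38, 7.49 and 7.34, and in Mpeg1 combination 4 to 7 at 6.96, 7.25, 7.03 and 7.33 and vehicle 4 to 7 at 7.63, 7.32, 7.55 and 6.77. These values are from another array set than tadalafil.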
